A study of Mus musculus with 2 samples.

Results

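Here 9 transcription factor genes of neural and endocrine differentiation were followed in pituitary stem cells (SCs) and their immediate progeny from mice at P3, postnatal day 3. The genes are *Neurod1*, *Neurod2*, *Neurod4*, *Nhlh1* and *Nhlh2*, which encode basic helix-loop-helix (bHLH) factors, and *Insm1*, *St18*, *Myt1* and *Scrt1*, which encode zinc-finger factors. They were taken by symbol, as 9 of the 31055 features counted. SOX9iresGFP+ve cells were sorted by FACS from Sox9iresGFP/+ pituitaries, with 1 library from males and 1 from females, and profiled by 10x single-cell RNA-seq, which counts the 3′ ends of transcripts. Each library held 3 pooled pituitaries. The reporter protein outlasts SOX9 itself, so the sorted fraction holds SCs together with cells that have recently left that state, and it is not a sample of the whole gland. With 1 library per sex there was no replicate and no test across animals was possible, and sex cannot be told apart from the animals, the sort or the preparation.

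In neural and endocrine tissues, bHLH factors bind DNA as pairs with widely expressed E proteins, at short sites called E-boxes, and switch on differentiation genes in cells that have been committed to a fate. NEUROD1 is best known for its role in neurons, pancreatic beta cells and pituitary corticotrophs, NEUROD4 acts in the developing pituitary alongside other bHLH factors, and NHLH2 is known from hypothalamic neurons that control energy balance and fertility. INSM1 is a zinc-finger repressor needed for endocrine cell differentiation in pancreas, gut and pituitary. MYT1 and ST18 belong to the small MYT family of zinc-finger factors, and SCRT1 is a neuronal repressor of the Snail superfamily.

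The promoters of 4 members whose levels differed between the lineages are shown, because E-boxes are the sites through which bHLH factors act on other genes. They come from RefSeq (GRCm38.p6), run 5′ to 3′ from 250 bases before to 50 bases after a transcription start, and carry every match to CANNTG in capitals. The RefSeq table used held promoters for 6 of the 9 members.
*Neurod1*, chr2:79456587-79456886, minus strand: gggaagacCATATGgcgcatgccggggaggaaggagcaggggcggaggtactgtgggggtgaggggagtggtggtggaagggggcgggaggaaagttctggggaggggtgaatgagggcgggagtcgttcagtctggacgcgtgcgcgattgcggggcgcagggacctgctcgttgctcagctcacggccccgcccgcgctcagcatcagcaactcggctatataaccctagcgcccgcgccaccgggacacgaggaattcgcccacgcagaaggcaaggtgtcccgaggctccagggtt
*Neurod4*, chr10:130280205-130280504, minus strand: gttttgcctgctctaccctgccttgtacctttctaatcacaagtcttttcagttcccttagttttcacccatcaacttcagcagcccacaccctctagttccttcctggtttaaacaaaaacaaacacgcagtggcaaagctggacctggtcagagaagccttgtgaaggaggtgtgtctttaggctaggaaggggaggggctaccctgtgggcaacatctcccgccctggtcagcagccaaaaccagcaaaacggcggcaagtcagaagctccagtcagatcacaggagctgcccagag
*Nhlh1*, chr1:172057547-172057846, minus strand: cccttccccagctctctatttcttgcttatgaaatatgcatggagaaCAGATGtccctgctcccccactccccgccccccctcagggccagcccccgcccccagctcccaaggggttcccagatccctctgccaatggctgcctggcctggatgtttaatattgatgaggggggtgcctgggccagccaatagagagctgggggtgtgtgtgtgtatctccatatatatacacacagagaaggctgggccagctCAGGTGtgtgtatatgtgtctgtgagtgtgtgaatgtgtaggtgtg
*Nhlh2*, chr3:102009895-102010194, plus strand: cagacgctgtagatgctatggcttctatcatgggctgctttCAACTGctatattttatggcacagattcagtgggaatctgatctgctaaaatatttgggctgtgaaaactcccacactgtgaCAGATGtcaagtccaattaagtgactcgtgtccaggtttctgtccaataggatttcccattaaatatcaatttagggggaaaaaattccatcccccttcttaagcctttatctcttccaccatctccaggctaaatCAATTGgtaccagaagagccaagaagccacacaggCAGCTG
The *Nhlh2* window held 4 E-boxes and that of *Nhlh1* held 2, in each case with 1 in the form CAGATG. That of *Neurod1* held 1, while the window at this *Neurod4* start held 0 and that of the other *Neurod4* start in the table (chr10:130280089-130280388) held 1. CANNTG matches both strands at once and occurred in 72.3% of all 32851 promoters of this length, with a median of 1 match. CAGATG, searched on both strands and itself one form of CANNTG, occurred in 17.2%. A match is only a run of letters in this window.

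On mm10 (GENCODE vM21) *Neurod1* lies at chr2:79452521-79456751 on the minus strand, *Neurod2* at chr11:98325415-98329648 (minus), *Neurod4* at chr10:130268152-130280240 (minus), *Nhlh1* at chr1:172052292-172057573 (minus) and *Nhlh2* at chr3:102010076-102015492 (plus). *Insm1* lies at chr2:146221921-146225020 (plus), *St18* at chr1:6487231-6860940 (plus), *Myt1* at chr2:181763332-181827797 (plus) and *Scrt1* at chr15:76516203-76522499 (minus). Only *Neurod1* overlaps other counted genes, *Cerkl* on its own strand and *Gm26755* on the other, so reads that fall in more than 1 of these genes make its count less certain.

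After filtering, 10410 male and 5711 female cells were kept, with a median of 8902.5 and 9789 transcripts per cell, counted as unique molecular identifiers (UMIs). Cells were placed in classes by raw UMIs of marker genes that are not members. The stem class (*Sox2* of at least 2 UMIs and *Sox9* of at least 1, without *Lef1*) had 1845 male and 1875 female cells, and the differentiating class (*Lef1* of at least 2 UMIs) had 778 and 565. The gonadotroph lineage (*Cga*, the alpha subunit that gonadotrophins share with thyroid-stimulating hormone, of at least 20 UMIs) had 916 and 142 cells. The Pou1f1 lineage (*Pou1f1*, the factor of somatotrophs, lactotrophs and thyrotrophs, of at least 2 UMIs) had 673 and 259 cells. Melanotrophs (*Pomc* of at least 100 UMIs with *Pax7* or *Pcsk2*) numbered 285 and 111. Cells in more than 1 of the last 3 (152 and 28) were left out. Because thyrotrophs also make *Cga*, they could pass the gonadotroph lineage gate or be among the cells left out. Most markers outside the gates went with the names. *Foxl2* stood at 251 and 226 CPM (a gene's share of all UMIs of the class, in the usual scaling) in the male and female gonadotroph lineage against 11.2 and 11.2 in the Pou1f1 lineage, *Rxrg* at 113 and 119.9 in the Pou1f1 lineage against 0.0718 and 0 in the gonadotroph lineage, and *Tbx19* at 46.4 and 84.9 in melanotrophs against 0.686 and 0 in the Pou1f1 lineage. *Gata2* and *Foxp2*, listed with *Foxl2* as gonadotroph markers, were not highest in the gonadotroph lineage. *Gata2* stood at 26.5 and 6.02 CPM there, against 85.4 and 57.6 in extra-pituitary cells, a class described below. *Foxp2* stood at 16.9 and 19.4 CPM there, against 25.7 and 30.6 in stem cells. The 2 libraries shared 19 barcodes. Cells that passed no gate numbered 5237 and 2432, with a median of 2177 and 8738.5 UMIs.

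A class's level is given in CPM with an exact 95% Poisson interval, and a share of cells with an exact 95% Clopper-Pearson interval, male before female, and both cover counting error only. Shares were taken after every cell was thinned to 5000 UMIs, because deeper cells show more genes, and shallower cells were left out. Extra-pituitary *Dcn*-rich cells, which should lack these factors, gave the background from free RNA. Any member was found in 0.427% (0.0518 to 1.54) of male and 0.733% (0.0888 to 2.62) of female extra-pituitary cells, with a median depth before thinning of 8150 and 7628 UMIs. A gene is called here when its CPM ratio, with 1 CPM added to both sides, is at least 2-fold in the same direction in both libraries, among genes with at least 20 UMIs in the classes compared.

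As a set, the factors were sparse in stem cells, appeared mostly singly in differentiating cells and were found several to a cell in the gonadotroph lineage. At least 1 member was found in 17.7% (15.9 to 19.5) of male and 22.0% (20.1 to 24.0) of female stem cells, and *Insm1* by itself in 16.7% (15.0 to 18.6) and 21.5% (19.6 to 23.4). Cells with 2 or more members made up 0.342% and 0.217% of stem cells, 10.1% (8.09 to 12.5) and 7.99% (5.89 to 10.5) of differentiating cells, and 9.68% (5.84 to 14.9) and 9.01% (4.41 to 15.9) of melanotrophs. In the Pou1f1 lineage the share was 34.9% (31.1 to 38.9) and 46.5% (40.2 to 52.8), and in the gonadotroph lineage 78.8% (75.9 to 81.5) and 67.9% (59.4 to 75.5). The gonadotroph lineage thus stood apart from the other 4 classes, with no overlap of intervals in either library. At least 3 members were found in 45.2% (41.8 to 48.6) and 39.3% (31.1 to 47.9) of gonadotroph lineage cells, against 9.85% (7.58 to 12.5) and 15.7% (11.5 to 20.8) of Pou1f1 lineage cells.

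**Figure D1:**
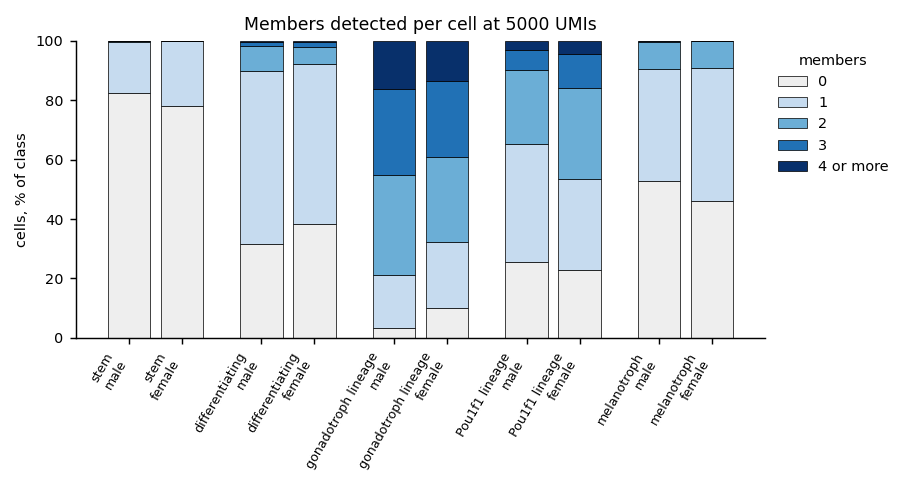
Share of cells (%, y axis) with 0, 1, 2, 3 or at least 4 of the 9 members, from light to dark, after thinning to 5000 UMIs, in 5 classes of each library. Cells with 3 or more members make up 45.2% of male and 39.3% of female gonadotroph lineage cells and 1.84% and 1.95% of differentiating cells.

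*Neurod1* was highest in the gonadotroph lineage. Its level was 2.41 (1.88 to 3.05) and 0.735 (0.420 to 1.19) CPM in male and female stem cells and 36.9 (33.5 to 40.5) and 36.5 (32.4 to 41.0) CPM in differentiating cells. In the gonadotroph lineage it stood at 981 (965 to 998) and 1400.3 (1351 to 1451) CPM. The Pou1f1 lineage lay between, at 55.8 (51.3 to 60.5) and 107 (96.3 to 118) CPM, and melanotrophs were low, at 9.66 (7.10 to 12.8) and 2.53 (0.820 to 5.89) CPM, from 47 UMIs in 32 male cells and 5 UMIs in 1 female cell. The order of the gonadotroph lineage, Pou1f1 lineage and differentiating cells was the same in both libraries with no overlap of intervals, and both stem cells and melanotrophs lay below these, with overlapping intervals for those 2 classes in the female library. Few cells held most *Neurod1* UMIs of the Pou1f1 lineage and differentiating classes, so these intervals understate the spread between cells. After thinning, *Neurod1* was found in 82.8% (80.1 to 85.3) and 71.4% (63.2 to 78.7) of gonadotroph lineage cells, 7.51% (5.74 to 9.62) and 4.8% (3.18 to 6.90) of differentiating cells and 14.2% (11.5 to 17.2) and 15.7% (11.5 to 20.8) of Pou1f1 lineage cells. In stem cells the shares were 0.626% (0.313 to 1.12) and 0.271% (0.0881 to 0.631), against 0.214% (0.00541 to 1.18) and 0% (0 to 1.34) in extra-pituitary cells, so that these shares could not be told from background. Before thinning, a single stem cell held up to 15 and 6 *Neurod1* UMIs, against at most 1 and 0 in an extra-pituitary cell.

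The *Neurod1* of differentiating cells came from few of them, and those were set apart after the values were seen. In the male library 30 of 778 cells, 3.86%, had 5 or more *Neurod1* UMIs, and they held 81.5% of the *Neurod1* UMIs of the class. In the female library 14 of 565 cells, 2.48%, held 85.7%. Gonadotroph genes were higher in these cells than in differentiating cells with no *Neurod1* UMI, in both libraries. *Cga*, under 20 UMIs in each of them by the gate, was at 487 (427 to 552) against 103 (96.9 to 109) and at 315 (241 to 405) against 80.2 (73.8 to 87.0) CPM. *Isl1*, a LIM homeodomain factor of gonadotrophs, was at 606 against 335 and at 873 against 281, and *Foxl2*, a forkhead factor of gonadotrophs, at 201 against 66.7 and at 191 against 52.8 CPM. Members differed as well. *Neurod4* was at 26.4 (14.0 to 45.1) against 3.25 (2.25 to 4.55) and at 51.6 (24.8 to 95) against 7.10 (5.29 to 9.34) CPM and *St18* at 52.7 (34.4 to 77.3) against 7.75 (6.15 to 9.63) and at 36.1 (14.5 to 74.5) against 6.96 (5.17 to 9.18) CPM, while *Insm1* was lower in the male and higher in the female library, at 187 against 221 and at 279 against 189 CPM.

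**Figure D2:**
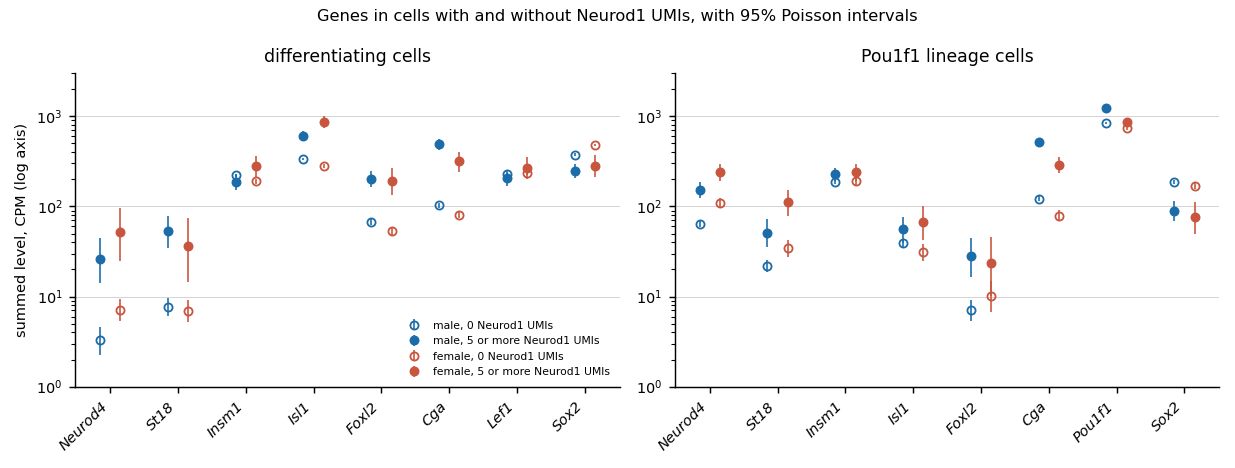
Summed level (CPM, log axis) of 8 genes each in differentiating (left) and Pou1f1 lineage cells (right) with 0 (open) or 5 or more (filled) *Neurod1* UMIs, male in blue and female in red, with 95% Poisson intervals. In differentiating cells *Neurod4*, *St18*, *Isl1*, *Foxl2* and *Cga* are higher in cells with 5 or more *Neurod1* UMIs in both libraries, while *Sox2* is lower (at 247 against 374 and at 284 against 478 CPM).

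Within the gonadotroph lineage, cells were divided by their summed UMIs of *Gnrhr*, *Lhb*, *Fshb* and *Nr5a1* into early (0), intermediate (1) and maturing (at least 2). *Neurod1* stood at 1047 (1022 to 1073) CPM in early, 1273 (1223 to 1325) in intermediate and 810.5 (787 to 834) in maturing cells of the male library. The female values were 1276 (1221 to 1334), 1554 (1422 to 1695) and 1884 (1729.7 to 2049) CPM, the last 2 from 20 cells each. Between early and maturing cells the libraries thus went opposite ways, with a male ratio of 0.774 (0.734 to 0.816) and a female ratio of 1.48 (1.30 to 1.68). Binned by the cell's own *Cga* level instead, both libraries were highest in the middle bin. Cells below 5000 CPM of *Cga* had 619 and 867 CPM of *Neurod1*, those from 5000 to 20000 CPM had 1220.0 and 2221, and those above had 790.1 and 1661.

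Gonadotroph lineage cells without a *Neurod1* UMI numbered 110 (male) and 35 (female), 12.0% and 24.6% of the class. Their *Sox2*, a stem cell factor, was at 333 (303 to 367) and 393 (343 to 448) CPM, against 88.6 (83.1 to 94.4) and 92.3 (77.1 to 109.6) in cells with 5 or more *Neurod1* UMIs. *St18* was at 40.6 (30.3 to 53.3) and 37.5 (23.2 to 57.3) against 169 (162 to 177) and 207 (184 to 232) CPM. Cells of this lineage without *Neurod1* were therefore high in *Sox2* and low in *St18* in both libraries. *Insm1* was at 226 against 271 and at 214 against 202 CPM in cells with 5 or more *Neurod1* UMIs against those with none.

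*Neurod4* was highest in another lineage. Its level was 0.310 (0.142 to 0.589) and 0.230 (0.0745 to 0.536) CPM in stem cells and 5.70 (4.42 to 7.24) and 10.1 (7.99 to 12.6) CPM in differentiating cells. It stood at 23.1 (20.7 to 25.8) and 48.2 (39.3 to 58.4) CPM in the gonadotroph lineage and 73.0 (67.9 to 78.4) and 129 (117 to 142) CPM in the Pou1f1 lineage, with no overlap of intervals between these 4 classes within a library. Male melanotrophs had 4 *Neurod4* UMIs in 285 cells, and female ones 0 in 111 cells, where the interval reaches 1.86 CPM. Thinned cells with *Neurod4* made up 27.9% (24.3 to 31.7) and 43.3% (37.1 to 49.6) of the Pou1f1 lineage and 11.3% (9.24 to 13.6) and 16.4% (10.7 to 23.6) of the gonadotroph lineage. Within the gonadotroph lineage it was lowest in the highest *Cga* bin of both libraries, at 9.65 (5.97 to 14.7) and 17.0 (4.62 to 43.4) CPM, against 26.7 (23.2 to 30.6) and 71.6 (53.3 to 94.2) CPM in the middle bin.

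*Neurod1* and *Neurod4* also differed by hormone content. Pou1f1 lineage cells poor in hormone (under 10 UMIs of *Prl*, *Gh* and *Tshb* together, 545 and 214 cells) had *Neurod1* at 70.9 (65.1 to 77.2) and 135 (122 to 150.0) CPM, and *Gh*-rich cells (77 and 39) at 9.12 (5.22 to 14.8) and 8.58 (3.15 to 18.7) CPM. *Neurod4* stood at 81.9 (75.6 to 88.6) and 127 (114 to 141) CPM in hormone-poor and 37.6 (29.1 to 47.9) and 134 (109 to 164) CPM in *Gh*-rich cells. *Neurod1* was thus lower in *Gh*-rich cells in both libraries, while *Neurod4* was lower there in the male library and had overlapping intervals in the female. *Gh* took 133979 and 198177 CPM of the *Gh*-rich cells, and with 7 hormone genes left out of the totals their *Neurod1* level came to 10.6 and 10.7 CPM and their *Neurod4* level to 43.5 and 168 CPM. *Prl*-rich cells (49 and 5) had *Neurod1* at 12.9 (6.20 to 23.8) and 27.4 (3.32 to 99.0) CPM and *Neurod4* at 66.0 (49.1 to 86.7) and 192 (105 to 322) CPM.

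In the Pou1f1 lineage too, a minority of cells held most of the *Neurod1* UMIs. The 41 male cells with 5 or more (6.09% of the class) held 68.2% of them, and the 25 female cells (9.65%) held 85.5%. Their *Neurod4* was at 152 (123 to 185) against 63.7 (58.4 to 69.4) and at 238 (189.6 to 296) against 110.2 (97.9 to 124) CPM in cells without *Neurod1*, and their *St18* at 51.1 (35.2 to 71.8) against 22.0 (18.9 to 25.5) and at 110.5 (78.2 to 152) against 34.2 (27.6 to 42.0) CPM. They also had more *Cga*, at 514 against 121 and at 288 against 79.0 CPM, while *Pou1f1* was at 1219 against 836 and at 855 against 732 CPM. In both libraries these cells were thus higher in *Neurod4*, *St18*, *Cga* and *Pou1f1* than those without *Neurod1*.

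Cycling cells, taken as cells with at least 2 of 8 proliferation genes, had less *Neurod1* than the rest in the lineages given here. In the male Pou1f1 lineage they numbered 51, with *Neurod1* at 6.17 (2.82 to 11.7) against 62.5 (57.4 to 68.1) CPM in the rest. In the male gonadotroph lineage they numbered 38, with 359 (323 to 397) against 1038 (1021 to 1056) CPM. *Neurod4* in the male Pou1f1 lineage was at 47.3 (36.8 to 59.8) against 77.6 (71.8 to 83.7) CPM, and *St18* at 8.22 (4.25 to 14.4) against 29.4 (25.9 to 33.3) CPM. The female Pou1f1 lineage had 11 cycling cells with 0 *Neurod1* UMIs, an interval that reaches 12.5 CPM, against 118 (106 to 130.1) in the rest.

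*Neurod2*, a close relative of *Neurod1*, was barely detected. All kept cells gave 10 UMIs in the male library, 8 of them in the gonadotroph lineage (0.574 (0.248 to 1.13) CPM), and 0 in the female, where the interval over all kept cells reaches 0.0587 CPM.

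*Nhlh1* and *Nhlh2* were both highest in the gonadotroph lineage. *Nhlh1* stood at 13.9 (12.0 to 16.0) and 20.8 (15.2 to 27.9) CPM there, at 1.27 (0.678 to 2.18) and 0.862 (0.178 to 2.52) CPM in the Pou1f1 lineage, and at 0.206 CPM or lower in stem, differentiating and melanotroph cells. *Nhlh1* in early cells was at 12.3 (9.68 to 15.3) and 16.9 (11.0 to 24.7) CPM, in intermediate cells at 20.7 (14.7 to 28.3) and 36.6 (18.9 to 64.0) CPM and in maturing cells at 13.4 (10.5 to 16.7) and 24.1 (9.70 to 49.7) CPM. Intermediate cells had the highest values in both libraries, with intervals that overlap those of the other stages. *Nhlh2* stood at 32.9 (30.0 to 36.1) and 15.7 (10.9 to 22.0) CPM in the gonadotroph lineage and at 1.76 (1.05 to 2.79) and 3.16 (1.58 to 5.66) CPM in the Pou1f1 lineage, and at 0.341 CPM or lower in the other 3 classes.

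*Nhlh2* was higher further along the lineage. Male early cells had 13.0 (10.4 to 16.2) CPM, intermediate cells 26.0 (19.2 to 34.4) and maturing cells 57.6 (51.5 to 64.2). Female early cells had 7.13 (3.56 to 12.8) CPM and maturing cells 79.2 (50.2 to 119), from 5 of 20 cells, with 0 UMIs in the 20 intermediate cells, an interval that reaches 11.3 CPM. *Nhlh2* was thus highest in maturing cells of both libraries, but 1 female maturing cell held 13 of the 23 UMIs of its class. Female shares after thinning overlapped, at 21.1% (6.05 to 45.6) in maturing and 2.97% (0.617 to 8.44) in early cells. Over the *Cga* bins it went from 10.8 (7.82 to 14.6) through 32.3 (28.4 to 36.5) to 75.8 (64.7 to 88.3) CPM in the male library and from 2.48 (0.511 to 7.24) through 26.7 (16.1 to 41.7) to 50.9 (26.3 to 88.8) in the female, where the last 2 bins overlap.

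**Figure D3:**
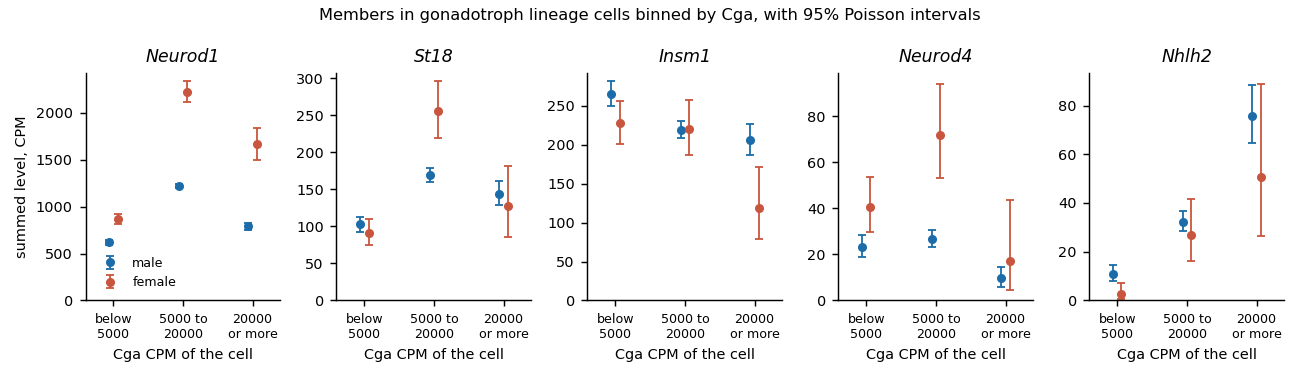
Summed level (CPM, y axis from 0) of 5 members in gonadotroph lineage cells grouped by the *Cga* CPM of the cell (x axis), male in blue and female in red, with 95% Poisson intervals. *Nhlh2* is higher in each successive bin in both libraries (10.8 to 75.8 CPM in the male), while *Neurod1* is highest in the middle bin.

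*Insm1* was the one member found in many SCs. It stood at 43.7 (41.4 to 46.2) and 58.9 (55.7 to 62.2) CPM in stem cells, against 2.89 (1.58 to 4.85) and 1.97 (0.640 to 4.60) CPM in extra-pituitary cells. Differentiating cells had 221 (213 to 229.9) and 193 (184 to 203) CPM and the gonadotroph lineage 231 (223 to 239) and 213 (194 to 234) CPM. The Pou1f1 lineage had 190.2 (182 to 199) and 194 (179.7 to 209) CPM and melanotrophs 83.4 (75.5 to 92.0) and 117 (102 to 133) CPM. The step therefore lay between stem and differentiating cells, and the differentiating, gonadotroph and Pou1f1 classes were close to each other in both libraries. Thinned cells with *Insm1* made up 16.7% and 21.5% of stem cells, 62.8% and 56.5% of differentiating cells, 66.1% and 62.1% of the gonadotroph lineage, 58.9% and 59.4% of the Pou1f1 lineage and 39.2% and 43.2% of melanotrophs. Maturing gonadotroph lineage cells and *Gh*-rich cells had less. The totals of *Gh*-rich cells include *Gh* here, which lowers the share of every other gene. Early gonadotroph lineage cells had 264 (252 to 277) and 235 (211 to 260.3) CPM and maturing cells 186 (175 to 198) and 103 (69.7 to 148) CPM. Hormone-poor Pou1f1 lineage cells had 209.9 (199.8 to 220.4) and 211 (194 to 229) CPM and *Gh*-rich cells 96.9 (82.9 to 113) and 134 (109 to 164) CPM, while the few *Prl*-rich cells, at 206 (175 to 240.2) and 164 (85.0 to 287) CPM, overlapped with hormone-poor ones.

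*St18* was distributed much like *Neurod1*. It stood at 0.759 (0.476 to 1.15) and 0.505 (0.252 to 0.904) CPM in stem cells, 12.0 (10.1 to 14.2) and 9.45 (7.42 to 11.9) CPM in differentiating cells and 146 (139.9 to 153) and 149.6 (134 to 167) CPM in the gonadotroph lineage. The Pou1f1 lineage had 26.4 (23.3 to 29.7) and 44.8 (38.1 to 52.5) CPM and melanotrophs 8.43 (6.05 to 11.4) and 6.57 (3.5 to 11.2) CPM. The gonadotroph lineage was thus highest in both libraries, and within it early and maturing cells had overlapping intervals, at 139.9 (131 to 149) and 136 (118 to 155) and at 148 (138 to 158) and 169 (125 to 223) CPM. *Myt1*, of the same family, was spread over more classes. Stem cells had 0.172 (0.0560 to 0.402) and 0.0459 (0.00116 to 0.256) CPM, differentiating cells 6.81 (5.40 to 8.48) and 3.58 (2.38 to 5.17) and the gonadotroph lineage 28.1 (25.4 to 31.1) and 31.5 (24.5 to 39.9). The Pou1f1 lineage had 14.6 (12.3 to 17.1) and 12.4 (8.95 to 16.6) CPM and melanotrophs 17.5 (14.0 to 21.6) and 26.8 (20.1 to 35.0), and neither interval overlaps that of differentiating cells in either library. *Scrt1* was low, with 2.80 (1.99 to 3.83) and 1.85 (0.505 to 4.74) CPM in the gonadotroph lineage and 1.85 (0.846 to 3.51) and 5.05 (2.42 to 9.29) CPM in melanotrophs, and 94 and 31 UMIs over all kept cells.

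**Figure D4:**
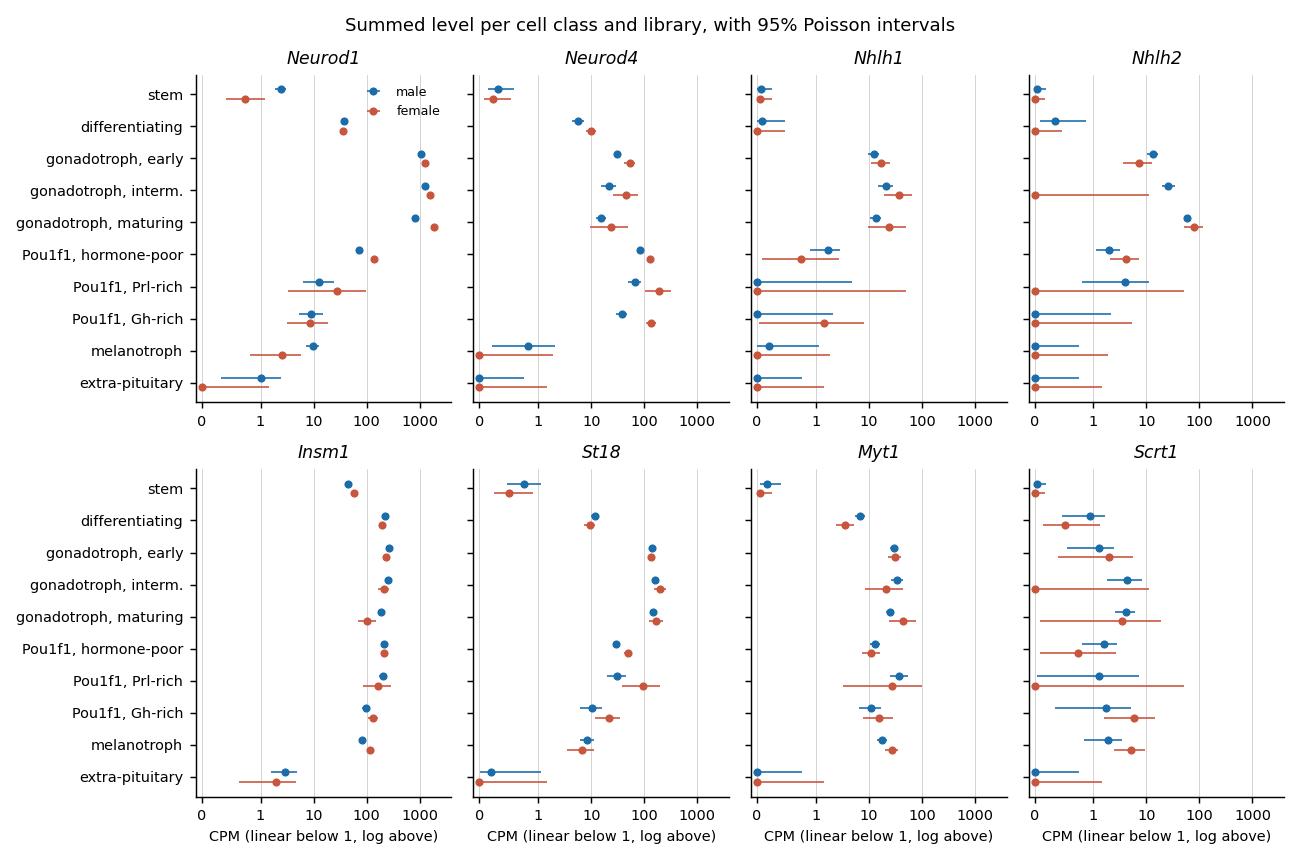
Level of 8 members (CPM, x axis linear below 1 and logarithmic above) in 10 cell classes, male in blue and female in red, with 95% Poisson intervals. *Neurod1*, *St18*, *Nhlh1* and *Nhlh2* are highest in gonadotroph classes and *Neurod4* in Pou1f1 classes, and *Insm1* reaches 43.7 and 58.9 CPM in male and female stem cells.

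Set against all genes, 5 of the 5 members with enough UMIs were called higher in differentiating than in stem cells, where 4.27% of 15177 genes were called higher and 10.2% lower. The ratio was 15.3 (11.0 to 21.5) and 49.7 (27.2 to 97.7) for *Neurod1*, male before female, 18.4 (7.5 to 51.0) and 44.0 (14.9 to 169) for *Neurod4*, 5.06 (4.60 to 5.56) and 3.28 (2.95 to 3.65) for *Insm1* and 15.8 (8.80 to 29.8) and 18.7 (8.21 to 47.1) for *St18*. *Myt1* passed too, over 5 male and 1 female UMIs in stem cells. *Neurod4* and *Myt1* reached the minimum of UMIs only through differentiating cells, so they could not have been called lower. The median log2 ratio over these 5 members was 2.74 for males and 2.80 for females, but it includes *Neurod4* and *Myt1* and so cannot show a shift of the set. *Neurod1*, *Insm1* and *St18* had log2 ratios of 3.47, 2.31 and 2.89 for males and 4.44, 1.70 and 2.80 for females. Over all genes tested the median was -0.04 and -0.06. The other 4 members had too few UMIs in these classes.

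From differentiating cells to the gonadotroph lineage, 6 of 8 members were called higher and 0 lower, against 4.68% higher and 1.81% lower of 14190 genes. *Nhlh1*, *Nhlh2* and *Scrt1* reached the minimum of UMIs only through the gonadotroph lineage, so they could not have been called lower. *Neurod1* was 26.6-fold (23.8 to 29.8) and 38.3-fold (32.9 to 44.8) higher, *St18* 12.2-fold (9.88 to 15.1) and 15.8-fold (11.3 to 22.5), *Neurod4* 4.05-fold (2.85 to 5.83) and 4.77-fold (3.13 to 7.30) and *Myt1* 4.13-fold (3.00 to 5.75) and 8.80-fold (4.73 to 16.8). *Nhlh1* and *Nhlh2* had 0 UMIs in female differentiating cells and were at least 54.4-fold and at least 41.1-fold higher against a floor of 3 UMIs over that class. In the male library *Nhlh2* was 96.7-fold (34.4 to 389) higher, over 4 UMIs. *Insm1*, with a ratio of 1.04 (0.969 to 1.12) and 1.10 (0.957 to 1.27), and *Scrt1* were not called.

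From differentiating cells to the Pou1f1 lineage, 3 of 7 members were called higher and 0 lower, against 7.35% higher and 2.42% lower of 14250 genes. *Neurod4* was 12.8-fold (9.37 to 17.7) and 12.8-fold (9.34 to 17.7) higher. *St18* was 2.20-fold (1.65 to 2.94) and 4.74-fold (3.21 to 7.07) higher, and *Nhlh2* passed on 18 male and 11 female UMIs. *Nhlh2* and *Scrt1* reached the minimum of UMIs only through the Pou1f1 lineage, so they could not have been called lower. *Neurod4* alone was still called with median-of-ratios scaling, with 5 CPM added, at a 3-fold limit or with a *Lef1* gate of at least 3 UMIs, so that *St18* and *Nhlh2* rest on the settings. *Myt1* lay at the limit, with log2 ratios of 0.998 and 1.55 after 1 CPM was added, the male just under it, and it was called under other settings, among them removal of the highest doublet scores and a minimum of 5000 UMIs per cell. *Neurod1* had a ratio of 1.51 (1.27 to 1.81) and 2.93 (2.35 to 3.65) and was not called.

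From differentiating cells to melanotrophs, 1 of 6 members was called higher and 2 lower, against 7.82% higher and 8.45% lower of 13741 genes. *Myt1* was 2.56-fold (1.65 to 4.0) and 7.49-fold (3.88 to 14.7) higher. *Neurod1* had a ratio of 0.262 (0.175 to 0.384) and 0.0691 (0.0200 to 0.182), and *Neurod4* of 0.144 (0.0309 to 0.476) in the male library and was at least 6.66-fold lower in the female. *Neurod4* reached the minimum of UMIs only through differentiating cells, so it could not have been called higher. The median log2 ratio of all genes tested was -0.30 and -0.14 here, in cells where *Pomc* took 255323 and 136858 CPM. Of all called genes 48.1% were higher, against 60.9% with median-of-ratios scaling and 65.7% with hormone genes left out of the totals, and the same 3 members were called under both. When single-cell CPM values were averaged instead, the male *Neurod1* log2 ratio was 0.61, that is, higher in melanotrophs. Of the 285 male melanotrophs, 99 had fewer than 5000 UMIs, and *Neurod1* was found in 2.15% (0.589 to 5.41) of the others after thinning.

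The gonadotroph and Pou1f1 lineages were also compared directly. There 4 of 8 members were called higher in the gonadotroph lineage and 1 lower, against 3% higher and 5.02% lower of 14329 genes. *Neurod1* was 17.6-fold (15.9 to 19.5) and 13.1-fold (11.4 to 15.1) higher, *St18* 5.55-fold (4.71 to 6.55) and 3.34-fold (2.55 to 4.38), *Nhlh1* 10.9-fold (5.49 to 23.5) and 24.2-fold (6.03 to 157) and *Nhlh2* 18.7-fold (10.8 to 34.5) and 4.98-fold (1.93 to 13.9). *Neurod4*, the one called lower, had a ratio of 0.317 (0.263 to 0.380) and 0.373 (0.278 to 0.497). In this comparison *Nhlh1* reached the minimum of UMIs only through the gonadotroph lineage, so it could not have been called lower. The comparisons given here share classes, so their calls are not independent. Between maturing and early gonadotroph lineage cells, *Nhlh2* was the 1 of 8 members called higher, at 4.42-fold (3.19 to 6.18) and 11.1-fold (3.93 to 33.4), and 0 were called lower, against 2.89% higher and 1.25% lower of 12848 genes. The female *Nhlh2* ratio rests on 23 maturing and 11 early UMIs, with 13 of the 23 in 1 cell. *Neurod4* was near the limit, with a ratio of 0.50 (0.348 to 0.713) and 0.453 (0.147 to 1.17).

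Between the male and female libraries, 0 members were called in stem, differentiating or Pou1f1 lineage cells, where 0.336%, 0.896% and 1.63% of genes were at least 2-fold higher in the male and 0.35%, 0.293% and 0.494% at least 2-fold lower. In the gonadotroph lineage *Nhlh2* was higher in the male library and *Neurod4* lower, at a male-to-female ratio of 2.09 (1.36 to 3.31) and 0.480 (0.354 to 0.655), against 3.71% of genes higher and 0.674% lower. Maturing cells made up 330 of 916 male and 20 of 142 female cells of this lineage, and the ratios did not hold at every stage. *Nhlh2* in early cells had a male-to-female ratio of 1.83 (0.813 to 4.54), and in maturing cells it was lower in the male library, at 0.727 (0.433 to 1.28). In intermediate cells *Nhlh2* had 49 male against 0 female UMIs, and *Neurod4* a ratio of 0.464 (0.201 to 1.13). *Neurod4* stood at 0.576 (0.401 to 0.833) in early and 0.635 (0.247 to 1.95) in maturing cells, and *Neurod1* at 0.821 (0.766 to 0.879) and 0.430 (0.384 to 0.482). Over the whole lineage, both the *Nhlh2* and *Neurod4* ratios are close to the limit, and neither passed with 5 CPM added. In melanotrophs *Neurod1* was higher in the male library, on 47 against 5 UMIs, against 3.33% of genes higher and 1.95% lower. That call was lost when cells under 5000 UMIs were left out.

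Co-detection was read within a class, in thinned cells, for pairs of members each found in at least 20 cells of that class and library. Over differentiating, gonadotroph lineage, Pou1f1 lineage and melanotroph cells there were 59 such sets, and in 10 of them the share of cells with the second gene had intervals that did not overlap between cells with and without the first gene. In all 10 the second gene was more frequent beside the first. Pairs of other genes were not counted in this way, so these numbers do not show whether members differ from other genes. The pair found most often among them was *Neurod1* with *St18*. *St18* was found in 50.8% (45.1 to 56.4) of male early gonadotroph lineage cells with *Neurod1* and 17.4% (10.3 to 26.7) of those without, and in 43.9% (31.7 to 56.7) and 8.57% (1.80 to 23.1) of female ones. In the Pou1f1 lineage the shares were 23.5% (15.0 to 34.0) against 8.37% (6.12 to 11.1) and 32.5% (18.6 to 49.1) against 13.1% (8.87 to 18.4), and in male differentiating cells 17.5% (8.75 to 29.9) against 3.85% (2.55 to 5.55). In maturing male gonadotroph lineage cells *St18* stood at like shares with and without *Neurod1*, at 47% (41.0 to 53.0) and 46.2% (30.1 to 62.8).

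**Figure D5:**
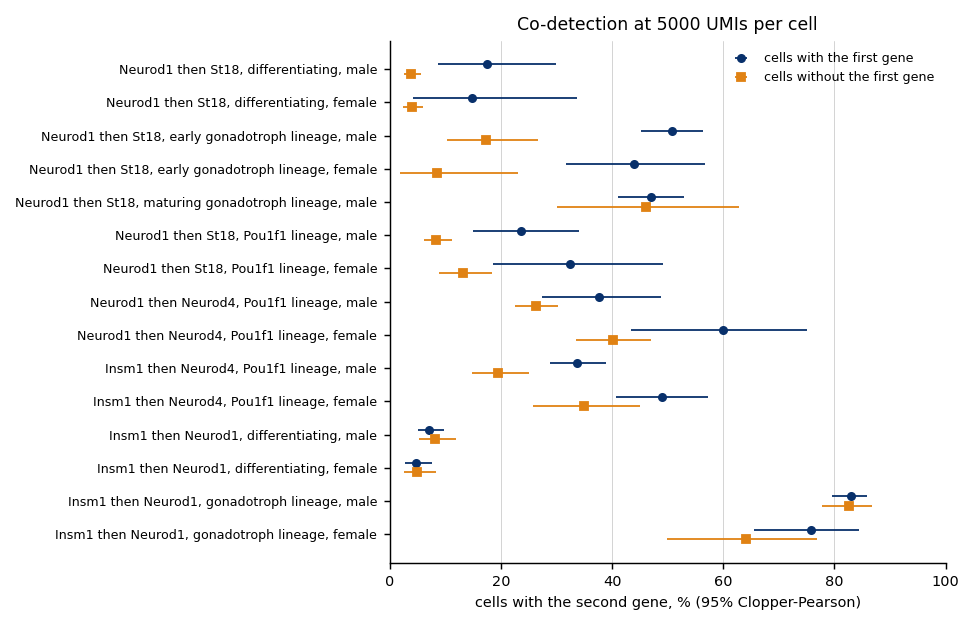
Share of cells (%, x axis) with the second gene of a pair among cells with (blue circles) and without (orange squares) the first gene, at 5000 UMIs per cell, with 95% Clopper-Pearson intervals. *St18* is more frequent beside *Neurod1* in early gonadotroph lineage cells (50.8% against 17.4% in the male library), while *Neurod1* is at a like share with and without *Insm1* in differentiating cells (7.13% against 8.16%).

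*Nhlh1* was found only beside *Neurod1* in the male gonadotroph lineage. All 50 of its thinned cells were among the 704 that carried *Neurod1*, and 0 were among the 146 others, where the interval reaches 2.49%. *Myt1* was found in 15.2% (12.6 to 18.1) of male gonadotroph lineage cells with *Neurod1* and 6.16% (2.86 to 11.4) of those without. *Neurod1* and *Neurod4*, which were highest in different lineages, were found together in the same cells. In the Pou1f1 lineage *Neurod4* was in 37.6% (27.4 to 48.8) of male cells with *Neurod1* and 26.3% (22.5 to 30.3) of those without, and in 60% (43.3 to 75.1) and 40.2% (33.6 to 47.1) of female cells, with overlapping intervals in both libraries. In female differentiating cells the shares were 22.2% (8.62 to 42.3) and 3.17% (1.86 to 5.03), with 6 cells carrying both.

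*Insm1* was read against both NeuroD genes. In the male Pou1f1 lineage *Neurod4* was in 33.7% (28.8 to 38.9) of cells with *Insm1* and 19.5% (14.8 to 25.0) of those without, and the female intervals overlapped, at 49.0% (40.8 to 57.3) and 35.0% (25.8 to 45). For *Neurod1* beside *Insm1* the shares were 7.13% (4.99 to 9.82) against 8.16% (5.24 to 12.0) in male and 4.72% (2.66 to 7.66) against 4.90% (2.56 to 8.40) in female differentiating cells, and 82.9% (79.5 to 85.9) against 82.6% (77.8 to 86.8) in the male gonadotroph lineage. With the highest doublet scores removed (894 male and 268 female cells), the same 10 sets of intervals stayed apart.

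Other genes of the same machinery were read from lists. The E proteins *Tcf3* and *Tcf12*, partners of the bHLH members, were not called in any of the 6 comparisons between classes, with *Tcf3* at 67.2 and 49.6 CPM in stem and 87.4 and 69.7 in differentiating cells. Of 10 bHLH inhibitors, which hold back differentiation in many progenitors, 7 were called lower in differentiating than in stem cells and 1 higher, against 10.2% and 4.27% of all genes. *Hes1*, a Notch target, was at 91.4 and 199.9 CPM in differentiating cells against 921 and 1702 in stem cells, and *Id3* at 36.7 and 50.8 against 207 and 219.8. The one called higher was *Hes6*, which antagonises HES1, at 1357 and 977 against 111 and 83.3 CPM.

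Of 7 zinc-finger relatives of the members, 6 had enough UMIs for the step from differentiating cells to the gonadotroph lineage, and 2 of these were called higher, against 4.68% of all genes. *Myt1l*, the other member of the MYT family, was unlike *St18*, at 38.3 and 21.3 CPM in the Pou1f1 lineage and 18.5 and 20.7 in melanotrophs against 4.59 and 4.63 in the gonadotroph lineage. *Insm2* stood at 8.69 and 5.56 CPM in the gonadotroph lineage and 1.02 and 0.766 in differentiating cells. *Rest*, the repressor of neuronal genes, was the 1 of 7 REST complex genes called lower from stem to differentiating cells, against 10.2% of all genes, at 90.4 and 87.0 against 16.3 and 20.7 CPM, and its corepressor *Rcor2* was the 1 called higher, at 3.97 and 3.35 against 20.5 and 17.5.

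Of 20 neuroendocrine genes, which serve secretory granules and the neuronal cytoskeleton, 14 of the 19 tested were called higher in differentiating than in stem cells, against 4.27% of all genes, and 14 of 19 higher in the gonadotroph lineage than in differentiating cells, against 4.68%. In the Pou1f1 lineage 7 of 20 were called higher and 2 lower, against 7.35% and 2.42%, and in melanotrophs 16 of 20 higher, against 7.82%. *Chga*, for chromogranin A of secretory granules, went from 7.45 and 11.0 CPM in stem cells to 132 and 139 in differentiating cells, and stood at 602 and 425 in the gonadotroph lineage and 2142 and 1943 in melanotrophs.

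For the 7 members with at least 200 UMIs, all but *Neurod2* and *Scrt1*, the 3 most similar genes were found by Pearson's r of log2(CPM + 1) over 10 classes in 2 libraries, 20 points that share libraries and depth. For *Neurod1* they were *Nlk* (r = 0.943), *Dnah7a* (0.939) and *Scgn* (0.938), and for *St18* they were *Nlk* (0.949), *Ube2q1* (0.946) and *Slc43a2* (0.938), so that *Nlk* led both lists. For *Neurod4* they were *Hsbp1l1* (0.920), *Zfp536* (0.904) and *9330182L06Rik* (0.899), for *Nhlh1* they were *B3galt5* (0.963), *Gnat3* (0.951) and *3110004A20Rik* (0.931), and for *Nhlh2* they were *Atp6v1g3* (0.90), *Sgpp1* (0.90) and *Fkbpl* (0.893). *Insm1* was most like *Kcnh8* (0.973), *Rims2* (0.964) and *Acer2* (0.964), and *Myt1* most like *Npas4* (0.974), *Celf3* (0.970) and *Tubb3* (0.963). Between members the highest r was 0.923, for *Neurod1* and *St18*, against 0.586 for *Neurod1* and *Neurod4*.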

How the data were processed

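Single-cell RNA-seq of SOX9iresGFP+ve pituitary cells at P3 was analysed in 1 male and 1 female library. The authors deposited whole-number UMI counts per gene and barcode for each library, aligned to mm10 and filtered to cell barcodes before deposit. The submitters' processing notes name R 3.6.0 and Seurat 3 and 4. Here, cells with at least 50 genes and a mitochondrial share of counts within 3 SD above the library mean were kept. Kept male cells had 105883748 counts in total and kept female cells 62830305. UMIs were summed per class and divided by the class total (CPM), with exact Poisson intervals, and shares of cells were taken after thinning each cell to 5000 UMIs (seed 1). A member was tested with at least 20 UMIs and called at a ratio of at least 2 in both libraries after adding 1 CPM. Every member was named, with genes of the lists where a value differed or described a class, and the 3 genes most like each of the 7 members with at least 200 UMIs. The members, classes and lists were chosen with earlier results of these data known, and the split of cells by 0 or by 5 or more *Neurod1* UMIs was made after values were seen. Doublets were not removed in the main values. Scrublet scores, with an expected rate of 0.8% per 1000 cells, were used as an alternative. Other alternatives changed the filters, scaling, gates, constant, fold limit and thinning. The computation was tested on simulated data with Python 3.11.15, numpy 2.4.6, scipy 1.17.1, pandas 2.3.3, scanpy 1.11.5 and matplotlib 3.10.9. The values of 1 further list gene are not reported here.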

Additional observations from a re-analysis of the deposited data

Results flagged for a closer look

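*Neurod1* went in opposite directions between early and maturing gonadotroph lineage cells in the 2 libraries. The maturing-to-early ratio was 0.774 (95% interval from counting error, 0.734 to 0.816) in the male library, with 810.5 CPM in 330 maturing and 1047 CPM in 453 early cells. In the female library the ratio was 1.48 (1.30 to 1.68), with 1884 CPM in 20 maturing and 1276 CPM in 102 early cells. The difference between the libraries was not tested, since each sex had 1 library, and sex cannot be told apart from the animals, the sort or the preparation. By *Cga* level the bin of 20000 CPM or more held 161 male and 17 female cells, with 790.1 and 1661 CPM of *Neurod1*, below the middle bin in both.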

How the results depend on the processing

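Over 17 alternatives, 781 of 782 recomputed log2 ratios of called members kept their sign and 17 of those missed the fold limit in use (2-fold, or 3-fold where that was the alternative). The exception was *Neurod1* between melanotrophs and differentiating cells in the male library, with a log2 ratio of 0.61 when single-cell CPM values were averaged. From differentiating cells to the Pou1f1 lineage, 1 member in place of 3 was called under median-of-ratios scaling, with *Lef1* of at least 3 UMIs, with 5 CPM added and at a 3-fold limit. With *Cga* of at least 50 UMIs, 2 members in place of 1 were called between maturing and early gonadotroph lineage cells, *Neurod4* being the other. With 5 CPM added, 1 in place of 3 was called from differentiating cells to melanotrophs. Male-to-female calls numbered 3 as reported, 5 with single-cell CPM averaged, 0 with 5 CPM added and 1 at a 3-fold limit. Without thinning, 36 of 90 sets of co-detection intervals were apart in place of 10 of 59. Of the recomputed levels, 3363 stayed within the reported interval and 147 left it. The cause of these shifts was not tested.

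No paired analysis was possible because each sex had 1 library. Depth limits *Neurod2*, *Scrt1* and the female stage classes, which hold few UMIs or cells, and the gates leave out cells whose markers were missed at low depth. All intervals cover counting error only, and no value here carries the spread between animals.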

Other observations

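Cells that passed more than 1 of the gonadotroph lineage, Pou1f1 lineage and melanotroph gates, 152 male and 28 female, belonged to no comparison. Their *Neurod1* stood at 387 (366 to 409) and 379 (329.9 to 432) CPM, *Neurod4* at 59.2 (51.1 to 68.3) and 92.0 (68.9 to 120.4) CPM, *St18* at 63.6 (55.2 to 72.9) and 64.2 (45.2 to 88.6) CPM and *Insm1* at 181 (167 to 196) and 175 (143 to 213) CPM. In each library the first 3 lay between the levels of the gonadotroph and Pou1f1 lineages. Their intervals overlapped those of the Pou1f1 lineage for *Neurod4* in both libraries and for *St18* in the female. *Insm1* was below both lineages, but its interval overlapped that of the Pou1f1 lineage in each library. In the female library it also overlapped that of the gonadotroph lineage. Scrublet scores marked 13 and 3 of these cells as the highest.

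Cells that passed no gate carried members too. *Insm1* stood at 119 (115 to 123) and 113 (108 to 117) CPM and was found in 32.2% (30.2 to 34.3) and 32.9% (30.9 to 34.9) of them after thinning, which left out 3215 male and 222 female cells under 5000 UMIs. *Neurod1* stood at 51.8 (49.2 to 54.5) and 14.0 (12.5 to 15.6) CPM, and before thinning 621 of 5237 male and 59 of 2432 female cells had a *Neurod1* UMI. After thinning the shares were 3.66% (2.88 to 4.57) and 1.86% (1.33 to 2.51).

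Differentiating cells were also divided by *Dll1*, a Notch ligand, and by *Smoc2* and *Pou3f4*. Cells with *Dll1* and neither of the others (50 male and 51 female) had *Insm1* at 166 (137 to 198) and 151 (123 to 183) CPM, and cells with at least 2 UMIs of *Smoc2* and *Pou3f4* and no *Dll1* (162 and 108) at 255 (235 to 276) and 215 (192 to 239) CPM. *Neurod1* in the *Dll1* cells came from 50 male UMIs and 1 female UMI, at 70.1 (52.1 to 92.5) and 1.45 (0.0367 to 8.08) CPM. The male UMIs lay in 4 cells, with 41 of them in 1 cell. In the other cells *Neurod1* stood at 50.8 (42.2 to 60.7) and 35.1 (26.4 to 45.8) CPM, with 41 of the 54 female UMIs in 1 cell. *Insm1* thus was lower in the *Dll1* cells of both libraries. The *Neurod1* levels there rest on few cells, and its shares after thinning overlapped between the libraries, at 6.25% (1.31 to 17.2) and 0% (0 to 7.11).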
